A study of Enchytraeus crypticus with 30 samples.

Results

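The gene probes described here are those that differed from control after 3 days of nickel exposure and were back near control after 7 days, in the soil worm Enchytraeus crypticus. They were chosen from the 24653 probes of a custom Agilent array whose spots the scanner software marked as positive and significant on each of 30 arrays. For each probe and each treatment, d is the mean log2 level of the 3 treated arrays minus the mean of the 3 control arrays of the same day, where a level is the log2 intensity minus the median of that array over the 24653 probes. A probe was a member when d was at least 0.8 in size (a 1.74-fold difference) with the same sign under nickel salt and under nickel nanoparticles at day 3, and below 0.4 in size (1.32-fold) under both at day 7. The rule found 66 early risers, with d above 0 at day 3, and 221 early fallers, with d below 0, so 287 members in all, or 1.16% of the probes analysed. The names describe the sign of d at day 3 and not the outcome of a test. Since these values of d chose the members, they are given below as a description, with no test.

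The worms were adults with a well developed clitellum, and each array held RNA from a pool of 20 whole organisms. They were exposed in LUFA 2.2 soil to nickel nitrate (NiNO3, as labelled) or to nickel nanoparticles (Ni-NPs), each at the concentration that lowers reproduction by 20% (EC20) or by 50% (EC50), for 3 or 7 days, beside worms kept in un-spiked soil for the same times. The 2 control groups and the 8 treated groups had 3 arrays each, so the rule used 18 arrays and left the 12 EC20 arrays aside. Whole-body extracts mix all tissues, so fewer cells of a type and less RNA per cell cannot be told apart. The mass of nickel per soil differed between the forms at the same effect concentration.

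Enchytraeids are small oligochaete worms that live in litter and topsoil, where they take part in decomposition, and E. crypticus is a standard species for tests of soil toxicity because it reproduces quickly in culture. The clitellum is the glandular band of the body wall that secretes the cocoon, so its presence marks a reproducing adult. Nickel ions bind to proteins and can displace other metals from them, and nickel particles in soil can act both as particles and as a slow source of ions. Salt and particles were compared here at doses matched by their effect on reproduction. Transcript levels in exposed animals can differ from controls for hours or days and then return, and a response of that kind needs controls sampled on each day to be seen. The probes are named by an assembled contig (contig followed by a number) or by a single sequencing read (names that begin with GYUW2K40). The files used here pair no probe with a gene, a description or a sequence, so the members are given by probe name and nothing is said of their function.

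Of the 43750 probes on the array that are not controls, 56.35% passed the signal filter, and 17007 were well above background on all 30 arrays. The number of probes so marked ran from 29661 to 40433 per array, and between 44.9% and 76.3% of probes were well above background. The correlation between replicate arrays of a group was 0.939 to 0.987 over probes. The arrays lay on 10 slides, and scanning was spread over 3 days that took 22, 5 and 3 of them. The day 3 controls were on slides 3, 3 and 8 and the day 7 controls on slides 1, 4 and 5, so slide and day cannot be told apart in the controls.

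At day 3, 375 probes were at least 0.8 above control under both EC50 treatments and 666 were at least 0.8 below it. Of the 375, 66 (17.6%) came within 0.4 of control under both forms at day 7, and 89 (23.7%) were past 0.8 in the same direction on that day too. Of the 666, 221 (33.2%) came within 0.4 and 74 (11.1%) stayed past 0.8. With the days exchanged, the same rule gave 54 late risers out of 332 probes and 91 late fallers out of 355. The early fallers were thus the most numerous of the 4 lists, and lists of both signs existed on both days.

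Among the 66 early risers, d at day 3 had a median of 0.96 under NiNO3 EC50 and of 1.01 under Ni-NPs EC50, against -0.05 and -0.02 over all probes analysed. At day 7 the medians were 0.13 under both forms. The highest d was 1.51 under NiNO3 and 1.77 under Ni-NPs. The 3 NiNO3 EC50 arrays all lay above the 3 day 3 controls in 34 of the 66 (6.62% of all probes), and the 3 Ni-NPs EC50 arrays in 42 (11.7% of all probes). In 28 of the 66 both forms lay above the controls without overlap, as in 3.95% of all probes. These contrasts are those of the rule, so nothing is read from the counts.

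**Figure D1:**
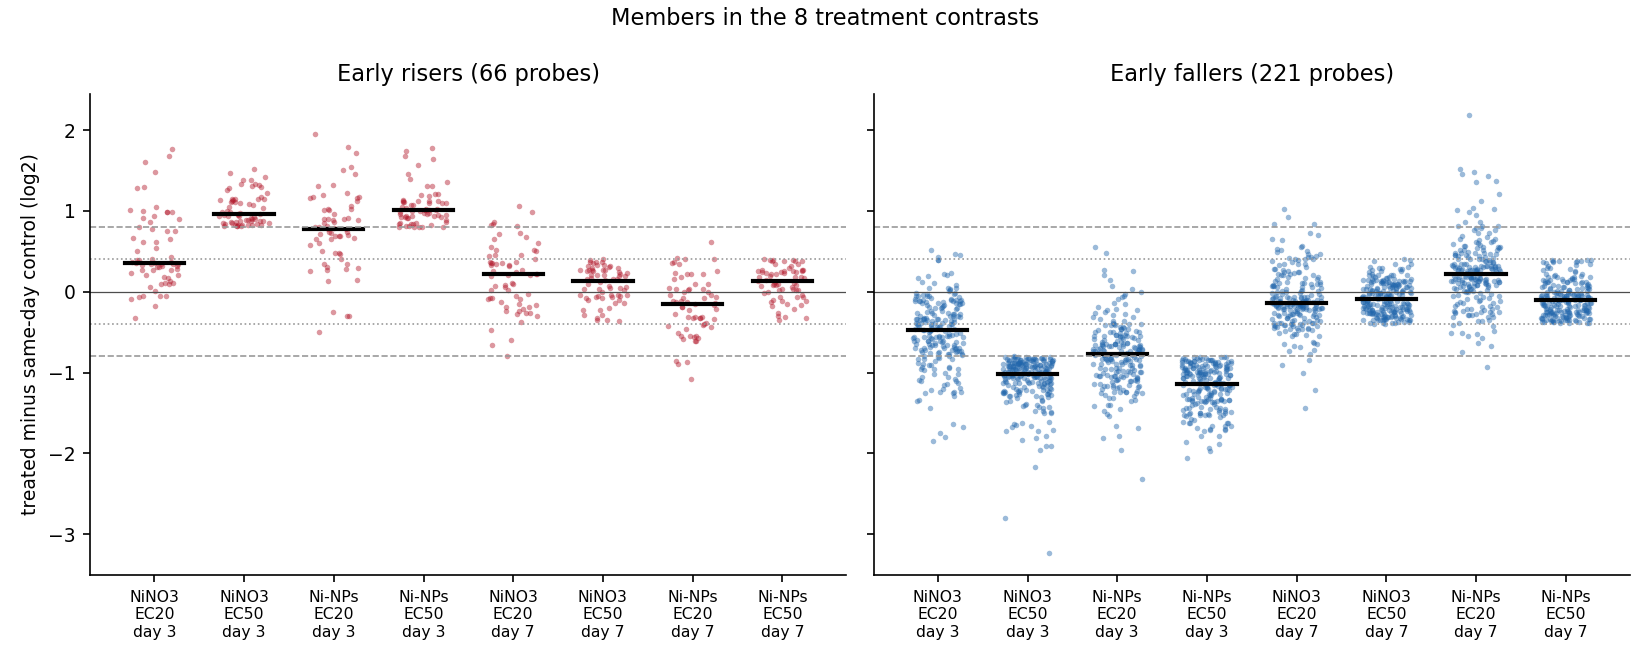
Difference from the same-day control (d, log2) for each of the 66 early risers (left) and 221 early fallers (right) in the 8 treatment contrasts. Each point is a probe, black bars are medians, and dashed and dotted lines mark 0.8 and 0.4. The EC50 columns are bounded by the rule. The EC20 treated arrays were not used by it, but the control arrays subtracted in these columns were, so they are not independent of it. At day 3 the medians under NiNO3 EC20 and Ni-NPs EC20 are 0.35 and 0.78 for the risers. For the fallers they are -0.47 and -0.78.

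The riser GYUW2K402JEDEX had levels of -2.21, -2.56 and -1.86 on the day 3 control arrays. It had -1.45, -0.51 and -0.51 under NiNO3 EC50 and -0.30, -0.91 and -1.23 under Ni-NPs EC50 on that day, all 6 above the controls. At day 7 its controls were at -0.70, -0.91 and -1.45, where the treated arrays of day 3 had been. Its d was 1.38 and 1.40 at day 3 under salt and particles and -0.35 and -0.11 at day 7, while its control level was 1.19 lower at day 3 than at day 7.

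GYUW2K401CFSU0 had control levels of 1.0, 0.10 and 0.84 at day 3, with 1.57, 2.42 and 1.91 under NiNO3 EC50 and 2.3, 1.90 and 1.68 under Ni-NPs EC50. Its day 7 controls were at 1.43, 1.14 and 0.52. Here the treated arrays of day 3 lay above the controls of both days, with d of 1.32 and 1.31 at day 3. Its d at day 7 was 0.29 under NiNO3 and 0.40 under Ni-NPs, the latter just inside the threshold.

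The riser contig22280 was composed differently. Its day 3 controls were at -1.86, -1.77 and -1.36 and its day 7 controls at -0.66, 0.60 and 0.02, a control shift of -1.65. The NiNO3 EC50 arrays of day 3 were at -0.84, -0.44 and -0.05 and the Ni-NPs EC50 arrays at -0.09, -0.22 and 0.01. The mean of the EC50 groups was itself 0.49 lower at day 3 than at day 7. In this probe, d at day 3 was above 0 because the control level was lower still.

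GYUW2K401DAZ7O, the first of the risers when ranked by the smaller of the d values of the forms (1.47 and 1.68), rested on 1 control array. Its day 3 controls were at 4.13, 3.75 and 0.34, beside 4.36, 4.29 and 3.99 under NiNO3 EC50 and 4.2, 4.30 and 4.76 under Ni-NPs EC50. Without the third control array the smaller of its d values was 0.27 in place of 1.47. For contig12595, with controls of -1.67, -2.85 and -2.77 at day 3, both EC50 groups overlapped the controls (-0.22, -1.72 and -1.57 under NiNO3 and -1.96, -0.96 and -0.74 under Ni-NPs), at d of 1.26 and 1.21. Of the other risers with a large d, contig05486 had d of 1.38 and 1.13, contig00007 1.14 and 1.09, and contig16864 1.09 and 1.2.

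Among the 221 early fallers, the median d at day 3 was -1.02 under NiNO3 EC50 and -1.14 under Ni-NPs EC50. At day 7 the medians were -0.09 and -0.10. The 3 NiNO3 EC50 arrays all lay below the 3 day 3 controls in 153 of the 221 (9.56% of all probes), and the 3 Ni-NPs EC50 arrays in 172 (13.4%). In 138 of the fallers both forms lay below the controls without overlap, beside 5.39% of all probes, again in the contrasts that chose them. This was 62.4% of the fallers, beside 42.4% of the risers.

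The first of the fallers by the smaller size of d, contig26784, had d of -1.91 under NiNO3 and was a dim probe, well above background on 10 of 30 arrays. Its day 3 controls were at -2.19, -2.45 and 0.07, with -3.17, -2.65 and -4.48 under NiNO3 EC50 and -3.12, -3.87 and -3.26 under Ni-NPs EC50. The Ni-NPs arrays were not well above background, so the difference there is a bound, at least 1.80-fold lower. The third control array stood apart from the other controls, and without it the smaller of the d values was 1.09 in size.

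GYUW2K401D09I4 had day 3 controls at -1.01, 1.65 and -1.37. All 6 EC50 arrays lay lower, at -1.78, -1.52 and -2.61 under NiNO3 and at -2.19, -2.45 and -1.89 under Ni-NPs. The d of -1.73 and -1.93 rested in good part on the second control array, without which the smaller was 0.78 in size. GYUW2K401D8ASD, with day 3 controls at 2.92, 2.66 and 4.92, depended in a similar way on the third control array, without which the smaller d was 0.94 in size. Its EC50 arrays of day 3 were at 1.85, 2.03 and 1.66 under NiNO3 and at 1.76, 1.16 and 2.46 under Ni-NPs, below all controls of that day.

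In GYUW2K401DUCJI no single control array carried the difference, and the smaller d stayed between 1.46 and 1.95 in size without each in turn. Its day 3 controls were at -0.34, 0.64 and 0.38, its NiNO3 EC50 arrays at -0.51, -2.50 and -1.68 and its Ni-NPs EC50 arrays at -1.68, -1.37 and -1.27. Its day 7 controls, at -1.16, -0.86 and -0.91, lay below the day 3 controls without overlap. Its d at day 3 was -1.79 under NiNO3 and -1.67 under Ni-NPs, and the control shift between days was 1.2.

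GYUW2K401DP9CW had day 3 controls at 0.88, 0.41 and 1.41, against -0.79, 0.40 and -2.35 under NiNO3 EC50 and -0.31, -1.61 and -0.27 under Ni-NPs EC50. The groups did not overlap, although the highest salt array lay just below the lowest control. Of the other fallers with a large d, GYUW2K401C6JDK had d of -1.61 and -2.06, contig20373 -2.80 and -1.5, and contig20487 -1.5 and -1.66. The control array of replicate 3 was again the highest in GYUW2K401C6JDK, at 6.07 beside 3.34 and 3.49, and without it the smaller d was 0.72 in size.

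The values next to the threshold were close on both sides of it. The riser contig26777 (d of 0.89 under NiNO3 and 0.80 under Ni-NPs) and GYUW2K401C11EU (1.14 and 0.80) were just inside, and GYUW2K401BEBSE (0.95 and 0.80) and contig02948 (1.37 and 0.79) just outside. Among the fallers, GYUW2K401B7KXX (-0.80 under NiNO3 and at least 1.71-fold lower under Ni-NPs, where it was not well above background) and contig19416 (-0.80 and -1.09) were just inside, and contig25421 (-0.80 and -1.25) and GYUW2K401A9504 (-0.80 and -0.85) just outside.

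A value of d that is large at day 3 and small at day 7 can come from the treated arrays, from the control arrays or from both, since the drop in d between the days is the shift of the treated level minus the shift of the control level. The controls of the members were not alike on the 2 days. In the 66 risers the control level was lower at day 3 than at day 7, with a median of -0.66, and below 0 in 54 of 66. In the 221 fallers it was higher at day 3, with a median of 0.72, and above 0 in 213 of 221. Over all probes the median was 0.04, with 53.6% above 0 and 46.4% below. The 3 day 3 controls lay below the 3 day 7 controls without overlap in 22 of the 66 risers (8.95% of all probes), and above them in 71 of the 221 fallers (10.3% of all probes). The controls are part of d, so the direction of this shift is tied to the rule. Under normexp background correction, which adds an offset of 50 to the signals and so compresses dim probes, the medians were -0.15 over the risers and 0.16 over the fallers.

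The shift of the EC50 arrays can be set beside that of the controls. The mean of both EC50 groups was 0.32 higher at day 3 in the risers by the median and -0.33 in the fallers, with 0.02 over all probes. The control shift was the larger of the shifts in 41 of 66 risers and in 161 of 221 fallers. The control mean rests on 3 arrays that enter d for both forms, while the EC50 mean averages 6 arrays, so the rule itself favours probes with a large control shift and nothing is read from these counts. Over all probes the spreads of the shifts were alike, with quartiles of -0.25 and 0.36 in the controls and of -0.30 and 0.39 in the EC50 mean. In 21 risers and 46 fallers the EC50 arrays moved against the direction of the list, so that the treated level of a riser was lower at day 3 than at day 7. The control part passed 0.8 in 25 risers and 95 fallers, and the EC50 part in 16 and 22.

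**Figure D2:**
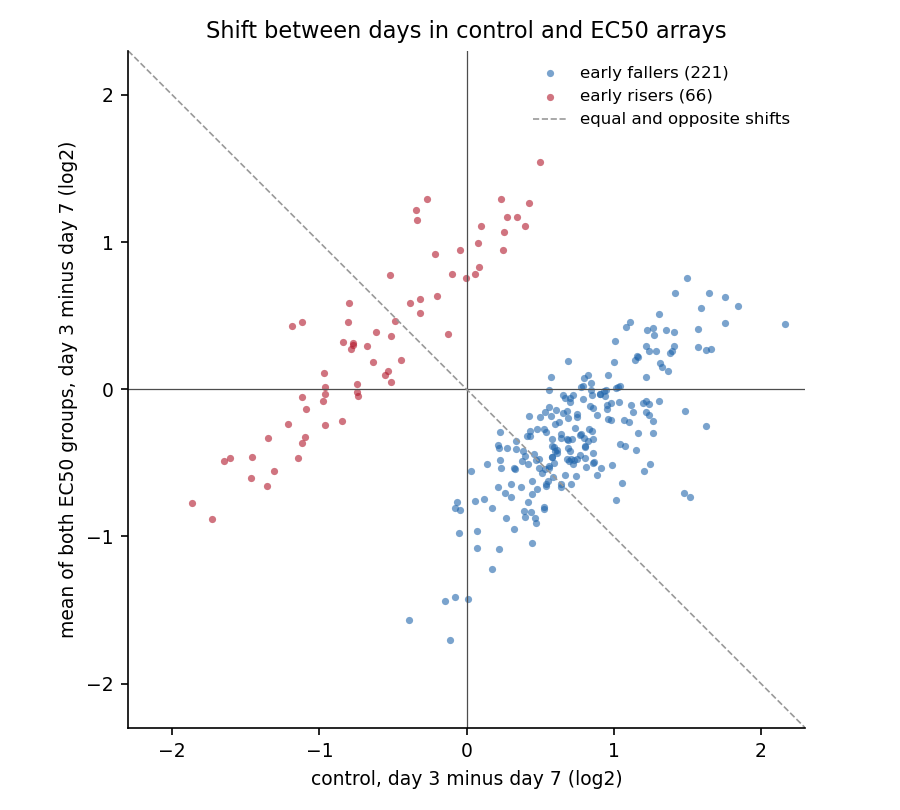
Shift between days (day 3 minus day 7, log2) of the control arrays (horizontal axis) and of the mean of both EC50 groups (vertical axis) for each member. On the dashed line both shifts are of equal size and opposite sign. Most fallers (161 of 221) and most risers (41 of 66) lie on the side where the control shift is the larger.

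The members with the largest control shifts were the risers GYUW2K402JH2G1 (-1.87) and contig20488 (-1.73) and the fallers GYUW2K401C6JDK (2.16) and GYUW2K401B5FJ8 (1.84). In both risers the EC50 arrays were also lower at day 3, with shifts of -0.77 and -0.88. The smallest control shifts were -0.01 in contig09662 and -0.04 in contig00007 among the risers, and 0.01 in GYUW2K401BESLE and 0.03 in GYUW2K402GNZEO among the fallers. The EC50 shift was 0.76 in contig09662 and -1.43 in GYUW2K401BESLE.

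In 14 risers and 17 fallers the EC50 arrays shifted by more than 0.8 between the days in the direction of the list while the control shift stayed within 0.4. In this subset, picked on the values of the rule, the means of the controls were near each other on both days. The 14 risers had a median EC50 shift of 1.11 with a control shift of 0.09, and 13 of them were well above background on all 30 arrays. The riser contig02561 had a control shift of 0.08 and an EC50 shift of 1.0. Its EC20 arrays, which the rule did not use, were also higher at day 3, by 1.19 under NiNO3 and by 1.93 under Ni-NPs. In contig01153 the EC20 values were 0.87 and 1.24, and in contig12552 0.99 and 0.75. The day 3 controls of contig02561 were spread widely, at 2.02, 0.59 and -0.84. Without the third day 3 control the smaller d was 0.36 in contig02561 and 0.33 in contig01153, and without the second it was 0.67 in contig12552.

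Over the 14 risers the EC20 level was higher at day 3 in 9 under NiNO3 (median 0.15) and in 13 under Ni-NPs (median 0.78). Over the 17 fallers it was lower at day 3 in 13 under NiNO3 (median -0.24) and in 16 under Ni-NPs (median -0.54). The faller contig04454 had a control shift of -0.08, an EC50 shift of -1.41 and EC20 shifts of -0.24 and -0.48, and its smaller d was 0.63 in size without the first day 3 control. Of the 17 fallers, 5 belong to a set of probes with nearly the same profile that is described last. The subset was formed after the values were seen and got no test.

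On single arrays, the median level of the 221 fallers was -1.59, -0.97 and -1.57 on the day 3 controls. It was -2.18, -2.45 and -2.38 under NiNO3 EC50 and -2.36, -2.47 and -2.46 under Ni-NPs EC50 at day 3, and -2.17, -2.38 and -1.62 on the day 7 controls. All 3 day 3 controls were higher than every EC50 array of that day and than every day 7 control, the nearest of which was at -1.62. The second control array of day 3 was the highest of all 30 arrays on this measure.

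The median level of the 66 risers was -0.27, -1.2 and -0.80 on the day 3 controls. It was 0.11, 0.38 and 0.21 under NiNO3 EC50 and 0.19, 0.40 and 0.30 under Ni-NPs EC50 at day 3. The day 7 controls, at -0.01, -0.06 and -0.67, overlapped the range of the day 3 controls, and the second control array of day 3 was the lowest of the 30 arrays. The same array therefore lay at the extreme of both lists, in opposite directions.

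**Figure D3:**
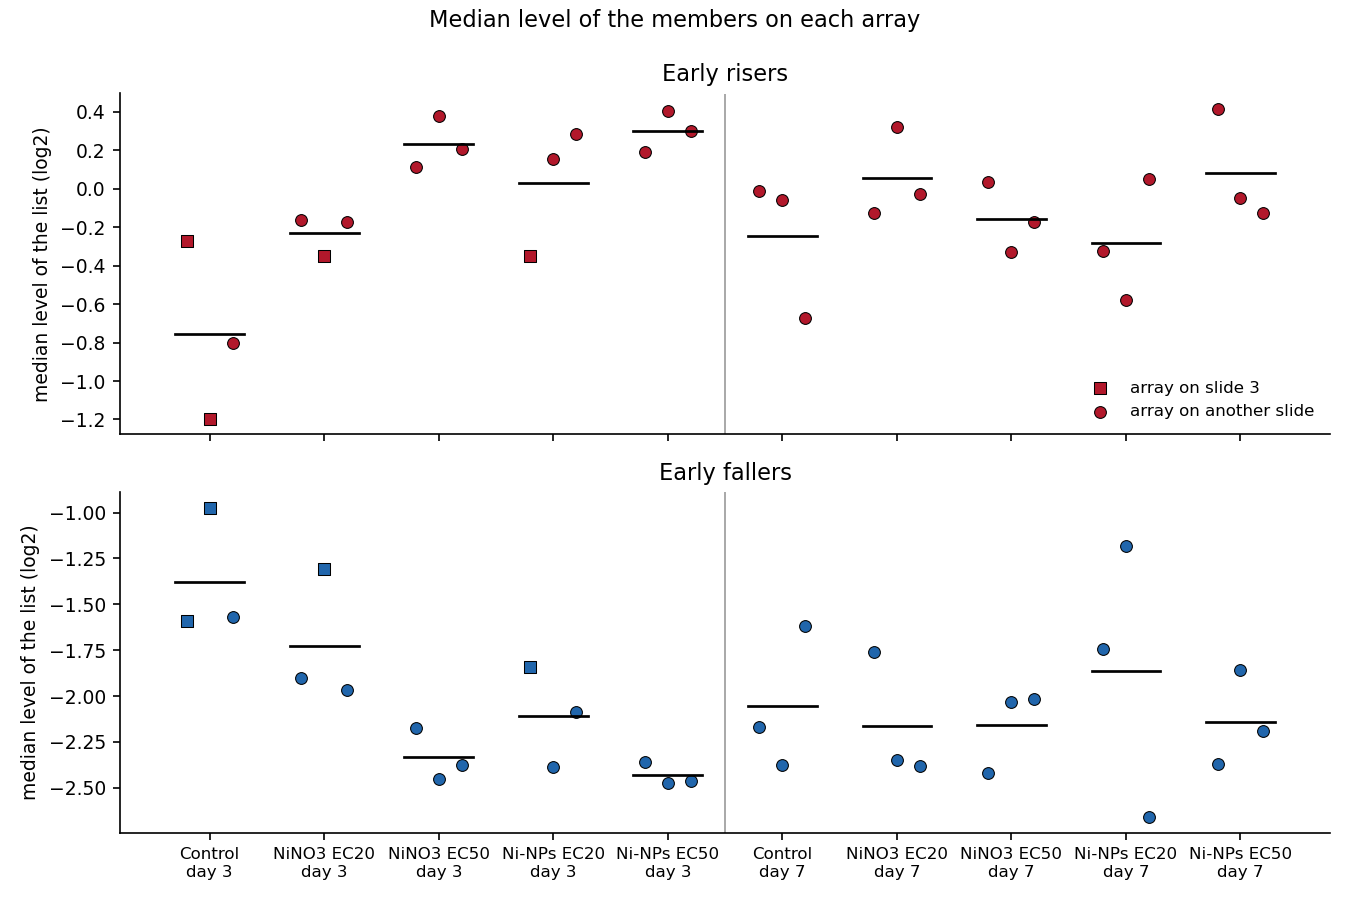
Median level (log2, relative to the array median) of the 66 early risers (top) and the 221 early fallers (bottom) on each of the 30 arrays, by group. Points are arrays, bars are group means of these medians, and squares are the arrays of slide 3, which holds 2 of the 3 day 3 controls. The second day 3 control is the lowest array for the risers (-1.2) and the highest for the fallers (-0.97).

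Treated and control arrays of day 3 met on slides 3 and 8. On slide 8, with 1 array of each, NiNO3 EC50 minus control had a median of 0.93 over the risers, above 0 in 63 of 66, and of -0.96 over the fallers, below 0 in 213 of 221, against -0.15 over all probes. Both arrays entered d, so these slide 8 values are a description of the contrast that chose the members. Ni-NPs EC50 shared no slide with a day 3 control, so for the particles slide and treatment cannot be told apart at day 3. On slide 3, NiNO3 EC20 minus control had medians of 0.04 over the risers and -0.09 over the fallers, and Ni-NPs EC20 minus control of 0.38 and -0.49. On slide 8, Ni-NPs EC20 minus control had a median of 1.01 over the risers, above 0 in 61 of 66. It was -0.60 over the fallers, below 0 in 195 of 221. Over all probes it was -0.07, with 10914 above 0 and 13739 below. The day 3 controls of both slides entered d, so these EC20 values are tied to the rule too. The part of slide and scan day in these differences was not tested.

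The EC20 groups carried the same nickel forms at a lower dose. Against the day 3 controls, NiNO3 EC20 had a median d of 0.35 over the risers, above 0 in 59 of 66, and of -0.47 over the fallers, below 0 in 201 of 221. Ni-NPs EC20 had medians of 0.78 (62 of 66 above 0) and -0.78 (213 of 221 below 0), against -0.04 and -0.06 over all probes for the salt and the particles. At day 7 the medians were 0.21 and -0.15 under NiNO3 EC20 and -0.15 and 0.21 under Ni-NPs EC20. The 3 EC20 arrays of day 3 lay beyond the controls, in the direction of the list, in 4 risers (3.03% of all probes) and 32 fallers (5.08%) under NiNO3, and in 21 risers (5.76%) and 75 fallers (8.53%) under Ni-NPs. These values use the same control arrays as the rule, so they are no independent look at the members.

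At day 3 the EC50 arrays lay further from the controls than the EC20 arrays. The difference between EC50 and EC20 had medians of 0.59 under NiNO3 and 0.28 under Ni-NPs over the risers and of -0.58 and -0.41 over the fallers. The EC50 side of this difference chose the members, so its direction is given as a description.

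The 12 EC20 arrays allow comparisons that share no array with the rule. The shift of the EC20 level between the days leaves out the controls, so its sign says how the treated level moved and not whether d at EC20 was early. Under NiNO3 EC20 the shift between days ran against the list by the median, at -0.38 over the risers (higher at day 3 in 23 of 66) and 0.41 over the fallers (lower at day 3 in 47 of 221), where all probes had 0.02. Under Ni-NPs EC20 it ran with the list, at 0.27 over the risers (higher at day 3 in 50 of 66) and -0.30 over the fallers (lower in 162 of 221), where all probes had -0.02. The forms gave opposite signs in 32 risers that were lower at day 3 under NiNO3 and higher under Ni-NPs. They also did so in 123 fallers that were higher under NiNO3 and lower under Ni-NPs. Of all 24653 probes, 4227 had the first of these sign patterns and 5298 the second.

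**Figure D4:**
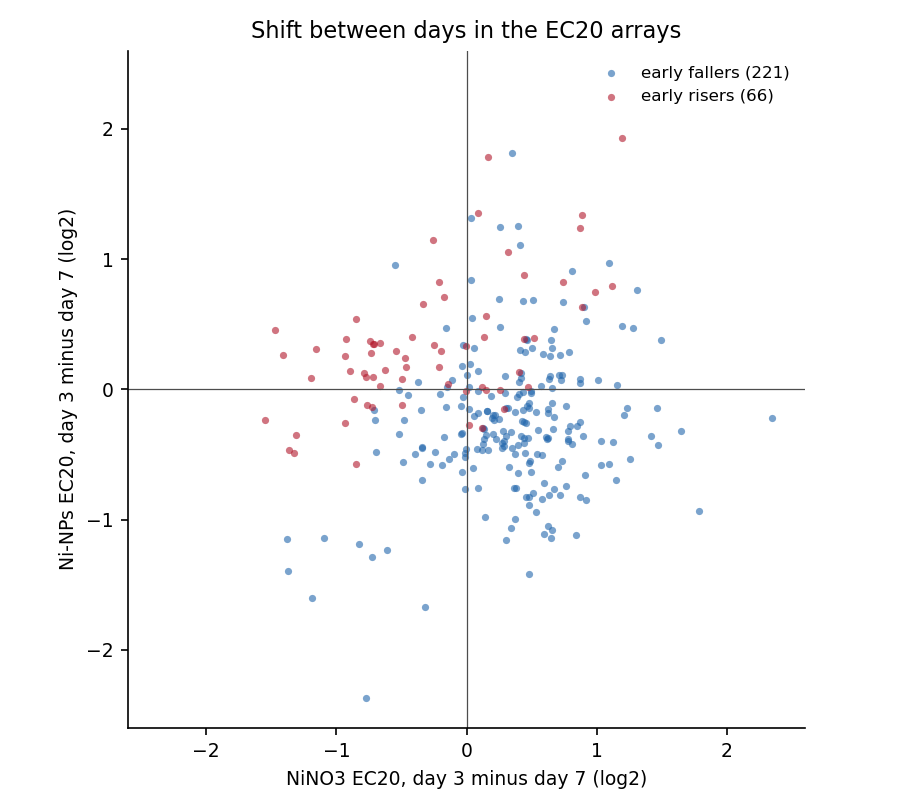
Shift between days (day 3 minus day 7, log2) in the EC20 arrays under NiNO3 (horizontal axis) and Ni-NPs (vertical axis) for each member. Points are probes. Under NiNO3 most fallers (174 of 221) lie right of 0 and most risers (43 of 66) left of it, and under Ni-NPs most risers (50 of 66) lie above 0 and most fallers (162 of 221) below it.

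The particle medians depended on single arrays. Without the second Ni-NPs EC20 array of day 7 they were 0.04 over the risers and 0.01 over the fallers, so the sign of the latter turned. Without the third Ni-NPs EC20 array of day 3 the riser median was 0.05. Leaving out each of the 6 arrays in turn, they ran from 0.04 to 0.47 in the risers and from -0.59 to 0.01 in the fallers. The salt medians ran from -0.66 to -0.23 and from 0.21 to 0.59. Without the second NiNO3 EC20 array of day 3 they were -0.23 and 0.21, and without the first of day 7 -0.66 and 0.59.

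Within scan days the salt shift kept its sign on scan day 1 (-0.43 in the risers and 0.33 in the fallers, 3 arrays against 2). On slide 1, the only slide with 1 NiNO3 EC20 array of each day, it was 0.23 in the risers and -0.17 in the fallers, opposite to the pooled values. The particle shift was -0.13 and -0.03 on scan day 1, with 1 array of each day, and 0.35 and -0.53 on scan day 2, with 1 array against 2. The pooled direction of the salt shift therefore did not hold within the slide, nor that of the particle shift in the risers on scan day 1.

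For single probes, limma with 1 mean per group over all 30 arrays and Benjamini-Hochberg adjustment over the 24653 probes called 1 member at a false discovery rate of 0.05 under NiNO3 EC20. It was a faller that was higher at day 3, where 0.414% of all probes were called higher and 0.134% lower. Under Ni-NPs EC20 no member was called (0.069% of all probes higher and 0.0203% lower). The methods' t-test called no member in either form, nor any other probe of the array. The spread in limma includes the 18 arrays of the rule, so the calls and p-values of members are not free of it. The SD among the day 3 controls had medians of 0.66 in the risers and 0.52 in the fallers, beside 0.32 over all probes. At an unadjusted p under 0.05, 3 risers were higher and 12 lower at day 3 under NiNO3, and 19 fallers higher and 0 lower, beside 7.68% and 7.54% of all probes. Under Ni-NPs these counts were 6 and 0 for the risers and 6 and 13 for the fallers, beside 4.64% and 6.71%. The fallers' share of 8.60% higher under NiNO3 was near the background, while 18.2% of the risers were lower, against the direction of their list. With SVCD normalization the NiNO3 counts were 0 and 26 for the risers and 5 and 2 for the fallers. The medians were -0.71 and 0.08. The share of all probes under that p is not given for SVCD. At the false discovery rate SVCD called 2580 of all 24653 probes, against 135 with the main scaling, so nothing is read from the SVCD counts. The 3 NiNO3 EC20 arrays of day 3 lay above those of day 7 without overlap in 1 riser and 23 fallers (6.47% of all probes) and below them in 7 and 1 (6.17%). Under Ni-NPs EC20 they lay above in 5 risers and 5 fallers (5.03%) and below in 1 and 3 (7.07%).

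The single call, contig19961, differed by 1.09 ± 0.24 (SE, n = 3 and 3; limma adjusted p = 0.0382). Its NiNO3 EC20 arrays were at -2.20, -2.01 and -2.37 at day 3 and at -3.0, -3.67 and -3.19 at day 7, without overlap. Its level was higher at day 3 in the Ni-NPs EC20 arrays too, with -2.20, -1.92 and -1.91 against -2.75, -3.25 and -2.93, a difference of 0.97 with an adjusted p of 0.132 in limma. The controls went the same way, from -1.83, -1.01 and -1.04 to -2.53, -3.50 and -3.12. So did the EC50 arrays, from -2.34, -2.23 and -2.09 to -3.05, -2.65 and -2.89 under NiNO3. In this probe all 5 conditions were higher at day 3, the controls most, and d at day 3 was -0.92 under NiNO3 EC50 and -1.23 under Ni-NPs EC50.

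The call for contig19961 was lost without the first or the second NiNO3 EC20 array of day 3 and without the second or the third of day 7, with limma adjusted p up to 0.212. Over the 18 alternatives run on this probe the adjusted p lay between 0.018 and 0.751. The probe was dim, well above background on 19 of 30 arrays, and under normexp the difference was 0.33 and was not called. The number of members called was 0 in those 4 cases, where 25 to 59 of all 24653 probes were called. It was 9 without the third array of day 3 and 18 without the first array of day 7, beside 662 and 1329 probes. The calls rose over all probes, so these counts are not read as a result about the members. The next probe, the faller contig07482, had the same pattern at a high level, 5.41, 5.87 and 6.62 on the day 3 controls and 4.80, 4.31 and 4.31 on the day 7 controls. Its NiNO3 EC20 arrays were at 5.81, 5.56 and 4.83 at day 3 and at 4.03, 3.75 and 4.49 at day 7, a difference of 1.31 ± 0.31 (SE) that missed the threshold (limma adjusted p = 0.0533). It was called in 9 of 19 alternatives, among them slide as a block, the scan day term and the replicate block, with adjusted p between 0.0063 and 0.751 over all 19.

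Among the risers, the smallest adjusted p under NiNO3 EC20 was 0.0807 in limma, for GYUW2K401B8IZK, which differed by -1.33 ± 0.34 (SE). Its arrays were at 0.86, 0.15 and 1.84 at day 3 and at 1.57, 2.66 and 2.59 at day 7, with an overlap. In GYUW2K401AKN36 the difference was -1.36 ± 0.36 (SE, adjusted p = 0.0917 in limma). Both risers had lower values at day 3 than at day 7 in the controls, by -1.46 and -1.61, and in the EC50 arrays, by -0.60 and -0.46.

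Under Ni-NPs EC20 the riser with the smallest adjusted p was contig00007. Its arrays were at 1.83, 3.13 and 3.79 at day 3 and at 2.08, 0.37 and 0.94 at day 7, and the difference was 1.79 ± 0.48 (SE, adjusted p = 0.158 in limma). Without the first array of day 7 it was the 1 member called, beside 164 of all 24653 probes. Its NiNO3 EC20 arrays, at 2.38, 1.53 and 1.12 against 1.37, 1.95 and 1.23, differed by 0.16. Of the remaining probes with small adjusted p, GYUW2K402J3XGR and contig22280 among the risers and contig15171 and contig18607 among the fallers had values between 0.12 and 0.18 under NiNO3 EC20.

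The forms were compared at EC20 on day 3, in arrays outside the rule. Ni-NPs EC20 minus NiNO3 EC20 had a median of 0.33 over the risers (above 0 in 44 of 66) and of -0.37 over the fallers (below 0 in 170 of 221), against -0.02 over all probes. The direction was that of each list, with the particles further from the controls. No probe of the array was called in this comparison by limma (0% of all probes in either direction) or by the methods' t-test. At an unadjusted p under 0.05, limma gave 11 risers higher and 2 lower and 2 fallers higher and 9 lower, beside 4.94% and 4.02% of all probes. SVCD normalization moved the median of all probes at day 3 by 0.26 in Ni-NPs EC20 minus control and by -0.04 in NiNO3 EC20 minus control. It thus raised the particle levels against the salt levels in all probes alike. With SVCD the counts were 25 and 1 for the risers and 11 and 1 for the fallers, and the medians 0.63 and -0.07. The direction of the faller counts turned. The share of all probes under that p is not given for SVCD, so the turn is not read as a result about the members. With the main scaling the lowest adjusted p of a member in limma was 0.457. The particle arrays lay above the salt arrays without overlap in 7 risers and 9 fallers (5.38% of all probes) and below them in 2 and 24 (6.54%). Without the second NiNO3 EC20 array of day 3 the medians were 0.20 and -0.14, and without the third Ni-NPs EC20 array the riser median was 0.16. On slide 3, with 1 array of each form, they were 0.31 and -0.45.

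The difference between the forms in the EC20 shift between days, tested as an interaction in the same limma fit, was called in 0 members and in 0% of all probes. At an unadjusted p under 0.05 it was lower under NiNO3 in 4 risers, beside 2.31% of all probes, and higher in 26 fallers, beside 3.55%. The lowest adjusted p of a member was 0.801. The opposite medians of the forms were thus not resolved in any single member.

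Membership was sensitive to single arrays. Leaving out each of the 18 arrays of the rule in turn, between 41 and 177 probes met the rule as risers and between 141 and 406 as fallers, with the fewest without the second day 7 control and the most without the first day 3 control. Without the first day 3 control, 62 of the 66 risers and 201 of the 221 fallers were kept. Without the second day 3 control, 27 and 122 were kept, and d fell under 0.4 in at least 1 form in 12 risers and 18 fallers. Without the third control of that day, this happened in 9 and 11. At least 1 form was under 0.8 in 39 risers and 99 fallers without the second control, and in 26 and 44 without the third control. In 8 risers and 74 fallers, d at day 3 stayed past 0.8 in both forms without each day 3 control in turn.

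Only 2 risers (3.03%) and 4 fallers (1.81%) met the rule without each of the 18 arrays in turn. They are named here after their values were seen. The riser contig16864 had day 3 controls at 1.23, 0.32 and 0.85, NiNO3 EC50 at 1.62, 2.24 and 1.82 and Ni-NPs EC50 at 2.09, 2.15 and 1.78. Its day 7 controls were at 1.35, 2.00 and 1.37, with a control shift of -0.77 and an EC50 shift of 0.30. The riser GYUW2K401AKN36 had day 3 controls at -2.85, -2.6 and -2.3 against -1.74, -1.55 and -1.2 under NiNO3 EC50 and -1.82, -0.99 and -1.39 under Ni-NPs EC50. In both risers the treated arrays of day 3 lay above all 3 controls.

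The 4 fallers were GYUW2K401DP9CW, given above, GYUW2K401B4NKN, GYUW2K401AM7F5 and GYUW2K401EKQ2R. GYUW2K401EKQ2R had day 3 controls at -2.45, -1.81 and -1.75, with -3.38, -4.52 and -2.36 under NiNO3 EC50 and -3.56, -3.14 and -3.40 under Ni-NPs EC50. One salt array lay just above the lowest control, and d under NiNO3 was -1.42. Its Ni-NPs arrays were not well above background, so the difference there is a bound, at least 1.29-fold lower. In GYUW2K401B4NKN the day 3 controls, at -1.70, -1.26 and -1.41, lay above all EC50 arrays (-2.21, -2.49 and -2.36 under NiNO3 and -2.37, -2.52 and -3.89 under Ni-NPs). In GYUW2K401AM7F5 they were at -1.92, -1.56 and -1.79, with -2.37, -2.86 and -2.88 and -2.48, -2.66 and -3.29 under salt and particles.

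The lists differed in brightness. The mean level over the 30 arrays had a median of -0.02 in the risers and of -2.08 in the fallers, against -0.05 over all probes, so most fallers lay below the middle of the array. The median signal, in the intensity units of the scanner, was 59.1, 14.6 and 60.0. Of the risers 41 (62.1%) were well above background on all 30 arrays and of the fallers 51 (23.1%), beside 69.0% of all probes. The pooled SD within groups had a median of 0.60 in the risers and 0.62 in the fallers, against 0.39 over all probes. The part of dimness in membership was not tested.

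In 86 of the 221 fallers none of the 3 Ni-NPs EC50 arrays of day 3 was well above background, as against 4 under NiNO3 EC50. For 78 of the 86 the difference from control is therefore a bound, with a median of at least 1.41-fold and values from 1.0 to 2.65, and for 8 no fold can be given. In 2 risers the day 3 controls were not well above background. Under Ni-NPs, 135 fallers and 64 risers had a level on both sides. The arrays themselves differed in this flag. Of all probes, 56.4%, 58.3% and 71.2% were well above background on the NiNO3 EC50 arrays of day 3. On the Ni-NPs EC50 arrays it was 49.8%, 55.9% and 44.9%. Of the fallers, 148, 145 and 214 were so marked under NiNO3 and 90, 127 and 62 under Ni-NPs. The counts of 86 and 4 are therefore not read as a difference between the forms.

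The members shared little in what else the files hold. Probes named by a contig made up 45.5% of the risers and 46.6% of the fallers, against 50.9% of all probes. Of the risers 48.5% and of the fallers 42.1% lay in the upper part of the array by row, against 50.4% of all probes. No sequence of a member is shown, since none is in the files used here.

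Some members had nearly parallel profiles. Over the 12 EC20 arrays, 7 of the 2145 pairs of risers (0.326%) and 31 of the 24310 pairs of fallers (0.128%) correlated at 0.95 or higher, against 0.0261% of all pairs of probes. Since points of one list share arrays and treatments, this is a description. The pairs join into 16 sets that hold 14 risers and 29 fallers, and whether the probes of a set measure the same transcript was not tested.

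The set with the most members held 7 fallers, namely GYUW2K401B33SZ, GYUW2K401B6Z8Q, GYUW2K401BESLE, GYUW2K401DSNDL, GYUW2K402HT7L9, GYUW2K402IXWM1 and contig25757. The levels of these probes, relative to the mean of each, were high by a median of 1.91 to 2.91 on 5 arrays. These were the third day 3 control, the third NiNO3 EC20 array of day 7, the second and the third Ni-NPs EC20 arrays of day 7 and the third Ni-NPs EC50 array of day 7. The highest of the other 25 arrays was at 0.67. All 5 were among the 8 arrays of scan days 2 and 3, and none was among the 22 arrays of scan day 1; the part of the scan day was not tested. Without the third day 3 control, d at day 3 lay between -0.32 and 0.16 under NiNO3 EC50 and between -0.63 and -0.20 under Ni-NPs EC50, so none of the 7 would have been a member.

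**Figure D5:**
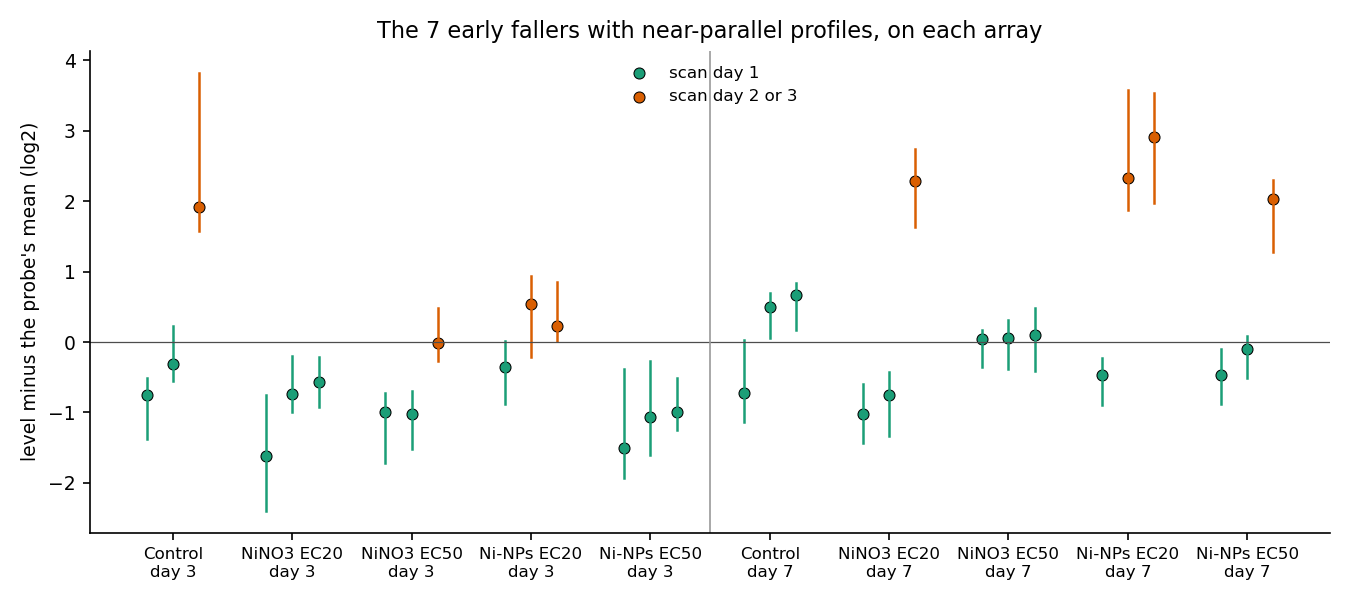
Level minus the mean of each probe over the 30 arrays (log2) for the 7 early fallers with near-parallel profiles. Points are medians over the 7 probes on each array, lines run from the lowest to the highest probe, and colour gives the scan day. The 5 high arrays, at medians of 1.91 to 2.91, were all scanned on days 2 and 3, and of the 3 day 3 controls only the third is high.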

How the data were processed

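Whole-body total RNA of pooled worms was labelled with Cy3 and hybridised to a custom 1-colour Agilent array. The authors read the arrays with Agilent Feature Extraction 10.7.3.1 (protocol GE1_107_Sep09, per the file headers) and deposited 1 scanner file per array, of which the processed signal, an intensity after background subtraction, and its quality flags were used. The deposited value table of the series holds the same intensities, not in log2, and its log2 equals that of the scanner files within 0.0072. It served as an alternative.

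Control probes were left out. Probes that the scanner flagged positive and significant on each of the 30 arrays were kept, and log2 intensities were centred on the array median (the Median normalization of the study). The members and lists were chosen with earlier results of these data known. Groups came from the sample labels. The study's methods describe the 3 pools of a group as biological replicates, each of 20 worms.

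EC20 groups were compared with limma 3.58.1 in R 4.3.3 (1 mean per group, 30 arrays, Benjamini-Hochberg adjustment over 24653 probes, false discovery rate 0.05), a procedure checked on simulated data. The SE is that of the fit. The interaction of form and day was added afterwards. Named probes were, among risers and fallers apart, the 8 with the largest smaller d, the 4 with the smallest adjusted p between days at EC20, the 2 largest and 2 smallest control shifts, and the 2 probes on each side of 0.8. Tables and figures were made in Python 3.11.15.

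Alternatives were quantile, 75th percentile and SVCD normalization (the study's own code), normexp background correction with an offset of 50, other probe filters, medians of arrays, other thresholds, slide as a random block, scan day and replicate number as terms, limma on the 6 arrays compared, the methods' t-test (each probe's own variance), and leaving out arrays. A bound compares the control mean with the higher of the treated signal and the lowest well-measured signal on each array. A probe was well above background by the scanner's own flag. The number of arrays limits the precision. No gene list could be applied, as no gene names were used here.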

Additional observations from a re-analysis of the deposited data

How the results depend on the processing

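The number of early risers, 66, was 114 with quantile normalization, 135 with SVCD normalization, 30 with only probes well above background, 227 with no filter, 114 with the median of the 3 arrays, 17 with thresholds of 1.0 and 0.4, 39 with 0.8 and 0.3 and 4 with normexp. The number of early fallers, 221, was 137 with SVCD normalization, 69 with only probes well above background, 89 and 141 with those thresholds and 14 with normexp. SVCD shared 25 risers and 92 fallers with the lists described, the median of 3 arrays 13 and 72, and normexp 3 and 9. Leaving out 1 array gave 41 to 177 risers and 141 to 406 fallers. Without both day 3 controls of slide 3 there were 358 and 623, of which 35 and 125 were shared. Normexp was run on the median signals, as the mean signals it was planned for are not used here, and like the value table, the slide 3 controls and the alternatives for the control shift it was chosen after seeing the data.

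The control shift kept its direction in every alternative run, from -0.96 to -0.43 over the risers and from 0.53 to 0.93 over the fallers without single control arrays, and was -0.15 and 0.16 with normexp. The lists were held fixed in these runs and were chosen with these control arrays, so the direction is tied to the rule. SVCD moved the median of all probes by -0.24 in the control shift and by 0.15 to 0.26 in both NiNO3 EC50 contrasts, Ni-NPs EC20 at day 3 and Ni-NPs EC50 at day 7, and no filter moved it by -0.15 in the control shift and by 0.23 in Ni-NPs EC50 at day 3. SVCD adds a constant to each array, so taking its shift off returns the values of the main scaling and tests nothing.

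Under NiNO3 EC20, 1 member was called in limma, beside 135 of all 24653 probes. The count was 2 with the 75th percentile and 10 with SVCD, beside 138 and 2580 probes. It was 2 with slide as a block and 2 with a scan day term, beside 229 and 149. No member was called with no filter (31 of 43750 probes called) or with normexp (17 probes). Limma on 6 arrays and the methods' t-test called 0 members and 0 probes. Without single arrays the count was 0 to 18, beside 25 to 1329 probes. The calls over all probes moved with the settings, so nothing is read about the members from these counts. The replicate block gave 3 members under NiNO3 EC20, beside 284 probes, and 0 in the Ni-NPs EC20 and form comparisons. The labels do not say whether a replicate number marks a shared batch, and the arrays were treated as unpaired. Deviations correlated at -0.36 to 0.46 over 21 pairs of arrays with the same number, 7 of them over 0.1. Pairs with different numbers were not compared. Under Ni-NPs EC20 the count was 0 in all alternatives run but 1 (0 to 1). Without the first array of day 7, 1 member was called, beside 164 of all 24653 probes. In the form comparison the count was 0 in all, though SVCD called 117 probes of the array there. The causes were not tested. Dim signals limit the fallers most, with 23.1% well above background on all arrays.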
